A study of Mus musculus with 12 samples.

Results

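The transcription factor genes *Otx2*, *Pou3f1*, *Sox3*, *Sox4*, *Sox11*, *Zic2*, *Zic5* and *Foxd3*, which mark the formative and primed states of pluripotency, were followed through spheroid formation. These 8 genes were chosen by name, out of 35580 genes summed from the deposited transcript tables, and their levels were read in all 6 groups of genotype and time. All 8 passed the filter on low counts, among 17424 genes tested. The groups were WT cells, which were the parental R1 line of mouse embryonic stem cells (ESCs), and CIDEA KO cells, which came from 1 CRISPR-edited clone of that line, each as ESCs (0 h) and as spheroids after 24 h and 48 h, with 2 libraries per group and 12 in all. ESCs were kept in medium with 10% fetal bovine serum (FBS) and the self-renewal cytokine LIF, and spheroids formed without LIF, in medium with 15% FBS and growth factor-reduced Matrigel, a basement membrane gel, in which the labels describe them as embedded, while the methods of the study describe seeding on top of a Matrigel coat for molecular work. The gene labelled as deleted, *Cidea*, had 20 to 117 estimated counts in the WT libraries and 0 in each of the 6 KO libraries. Because every KO library came from a single clone, an effect of *Cidea* loss and any other property of the clone cannot be told apart. The study calls the samples of a group independent, and the sample labels do not say whether they came from separate cultures. The p-values measure the spread between these libraries.

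As ESCs leave the naive state, which resembles the preimplantation epiblast, they lose factors such as ESRRB and KLF4 and pass through a formative state towards the primed state of the postimplantation epiblast. OTX2 and POU3F1 (also called OCT6) are early factors of this transition, and OTX2 redirects POU5F1 (OCT4) to a new set of enhancers. The SOX factors bind DNA through an HMG box, ZIC2 and ZIC5 are zinc finger proteins, and FOXD3 is a forkhead protein that acts on enhancers as well.

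The libraries held 29.0 to 38.5 M estimated counts. Markers of pluripotent cells (*Pou5f1*, *Sox2*, *Nanog*, *Sall4*, *Utf1* and *Zfp42*) summed to between 2159 and 3374 TPM (a level scaled for transcript length and library) in every library. The summed level was 6.001 to 14.2 TPM for 7 mesendoderm markers, 6.90 to 11.98 TPM for 6 markers of extraembryonic endoderm, 6.54 to 23.8 TPM for 5 trophoblast markers and 7.84 to 25.5 TPM for 6 fibroblast markers. The 9 neural markers summed to 62.7 to 171 TPM, most of it from *Tubb3*, while *Dcx* did not exceed 0.125 TPM. One library stood apart, KO 24 h replicate 1, in which 15486 genes were detected at equal depth against 17641 to 19688 in the others.

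*Otx2* lies on the reverse strand of chromosome 14 (GRCm38, chr14:48657677-48673819) and has several start sites, and it is the member with the clearest difference between the genotypes in ESCs. RefSeq gives 4 windows around *Otx2* starts, each from 250 bases before to 50 bases after the start. The 3 shown here lie at or near the starts of the 3 transcripts with the highest median share of *Otx2* TPM in these libraries, Otx2-201, Otx2-204 and Otx2-202. The first, chr14:48665060-48665359 on the reverse strand, has its start 3 bases from that of transcript Otx2-201. The second, chr14:48662685-48662984 on the reverse strand, has its start 138 bases from that of Otx2-204, and the third, chr14:48667459-48667758 on the reverse strand, lies at the upstream group of starts, which includes that of Otx2-202. Capitals mark matches to the motifs searched, of which only the first of these windows has one, in the strand of the gene, 5′ to 3′.
Otx2 window at Otx2-201: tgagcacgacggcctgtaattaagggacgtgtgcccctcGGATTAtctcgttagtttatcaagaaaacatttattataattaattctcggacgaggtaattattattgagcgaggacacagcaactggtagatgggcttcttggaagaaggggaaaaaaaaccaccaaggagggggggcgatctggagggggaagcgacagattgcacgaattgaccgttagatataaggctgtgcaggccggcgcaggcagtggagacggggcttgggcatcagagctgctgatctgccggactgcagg
Otx2 window at Otx2-204: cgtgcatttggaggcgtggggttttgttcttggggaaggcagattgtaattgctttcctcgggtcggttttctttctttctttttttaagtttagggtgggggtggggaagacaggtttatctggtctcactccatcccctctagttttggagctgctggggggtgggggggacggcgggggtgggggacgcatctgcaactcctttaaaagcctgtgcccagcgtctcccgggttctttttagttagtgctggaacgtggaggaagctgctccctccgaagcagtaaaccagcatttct
Otx2 window at the upstream starts: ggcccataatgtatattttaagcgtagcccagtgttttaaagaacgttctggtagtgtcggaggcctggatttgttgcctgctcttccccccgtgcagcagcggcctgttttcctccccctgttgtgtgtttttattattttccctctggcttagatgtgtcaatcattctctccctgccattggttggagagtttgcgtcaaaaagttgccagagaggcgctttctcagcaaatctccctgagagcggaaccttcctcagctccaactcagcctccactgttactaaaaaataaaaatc

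The first window held the OTX-type motif TAATCC, read on the opposite strand as GGATTA, with its first base at -211 from the start, and 7.06% of all 32851 RefSeq windows of the same length held it on either strand. The *Otx2* window not shown, chr14:48667595-48667894, held TATAAA with its first base at -192, a motif present in 13.6% of all windows. The octamer ATGCAAAT (1.74% of all windows), the SOX-type motif ACAATG (12.6%) and the ZIC-type motif CAGCAGG (10.5%) were in none of the 8 windows of *Otx2*, *Sox4*, *Sox11*, *Zic5* and *Foxd3*. A match describes the letters only. Of the 8 windows, that of *Foxd3* held the most CpG (25) and the *Otx2* window not shown the fewest (6), against a median of 7 over all windows. Among the other members, *Pou3f1* (chr4:124656807-124660655) and *Foxd3* (chr4:99656299-99658622) lie on the forward strand, and *Sox3* (chrX:60891366-60893430), *Sox4* (chr13:28948919-28953713) and *Sox11* (chr12:27334264-27342574) on the reverse strand of GRCm38, and each of these 5 was annotated with 1 exon. *Pou3f1*, *Sox3* and *Foxd3* transcripts were 63.9%, 66.4% and 65.1% G and C, above 99.2%, 99.7% and 99.5% of the genes compared. *Zic5* (chr14:122456795-122465677, reverse strand) and *Zic2* (chr14:122475435-122479852, forward strand) are neighbours, with 9757 bases between them and no other gene of the tables in that gap.

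All 8 members rose between ESCs and 48 h spheroids in both genotypes, by the quasi-likelihood test of edgeR, with p-values adjusted over all genes tested. In bulk RNA, more cells that express a gene and more of its RNA per cell cannot be told apart. Of all genes tested, 11.1% were called higher over this interval in WT cells and 12.1% in KO cells. The median log2 fold change of the members was 1.52 in WT and 1.33 in KO cells, against 0.02 and 0.01 over all genes. *Pou3f1* rose the most, by a log2 fold change of 5.64 ± 0.18 (SE) in WT and 4.59 ± 0.17 in KO cells. *Sox4* had the smallest change of the 8 in WT cells, 0.81 ± 0.13, and *Foxd3* the smallest in KO cells, 0.75 ± 0.17. Leaving out WT 48 h replicate 2 ended the WT call of *Sox3* (1.34). Leaving out KO 0 h replicate 2 or KO 48 h replicate 2 ended its KO call (1.08 and 1.21). That KO call was also lost with average transcript lengths as offsets (1.47, edgeR adjusted p = 0.0513). The same held for limma on log2(TPM + 0.1) (1.44, adjusted p = 0.0555). *Foxd3* lost its KO call without KO 0 h replicate 2 (0.55, adjusted p = 0.0786). The KO rise of *Zic5*, 1.11 ± 0.10 by counts, was 0.65 with average transcript lengths as offsets, still called, and 0.59 and 0.61 with limma on log2(TPM + 1) and log2(TPM + 0.1) (adjusted p = 0.107 and 0.103), where it was not called.

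Markers of other cell types also changed over these days. From ESCs to 48 h the summed neural markers went from between 148 and 171 to between 62.7 and 80.4 TPM, and the summed mesendoderm markers from between 6.001 and 8.44 to between 11.6 and 14.2 TPM, with the ranges taken over both genotypes. The summed trophoblast markers went from between 14.6 and 23.8 to between 6.54 and 9.56 TPM, and *Tfap2c*, the largest part of them, fell in both genotypes (-2.19 ± 0.19 in WT and -1.72 ± 0.19 in KO cells). The part of these markers in the rise of the members was not tested.

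**Figure D1:**
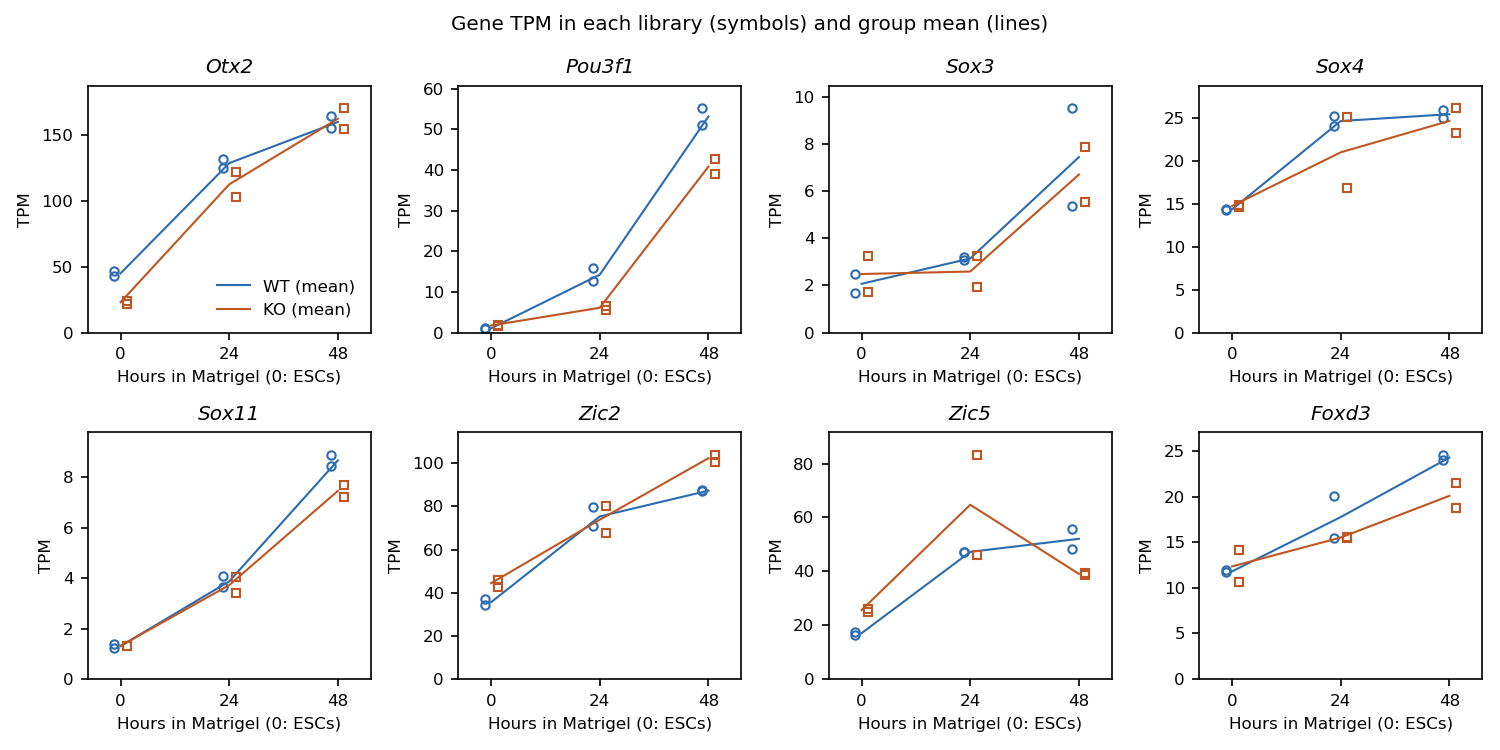
TPM of each of the 8 genes (y axis, linear) against hours in Matrigel (x axis, 0 h being ESCs), with circles for the 2 WT libraries, squares for the 2 KO libraries and lines through the group means. The levels at 48 h lie above those at 0 h in every panel and genotype, the KO symbols of *Otx2* lie below the WT symbols at 0 h, and those of *Pou3f1* lie below them at 24 h.

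The members rose on different days. From 0 h to 24 h, 7 of 8 members were called higher in WT and 6 of 8 in KO cells, where 7.54% and 9.24% of all genes were. From 24 h to 48 h, 4 of 8 were called higher in WT and 5 of 8 in KO cells, where 3.28% and 4.57% of all genes were, and no member was called lower over any interval. The second day rise of *Otx2* in WT cells was 0.31 ± 0.09 (edgeR adjusted p = 0.0433). Its call was lost without either WT library of 24 h or 48 h and without either KO library of 48 h (0.26 to 0.36). The call was also lost with average transcript lengths as offsets, both limma fits and replicate as a block (0.31 to 0.34). On TPM group means, *Otx2* had made 72.8% of its 48 h rise by 24 h in WT cells, *Zic2* 76.8% and *Sox4* 92.8%, whereas *Pou3f1* had made 25.3% and *Sox11* 34.8%. In KO cells the same share was 64.2% for *Otx2*, 50.8% for *Zic2*, 63.0% for *Sox4*, 11.1% for *Pou3f1* and 39.2% for *Sox11*. These shares have no test.

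**Figure D2:**
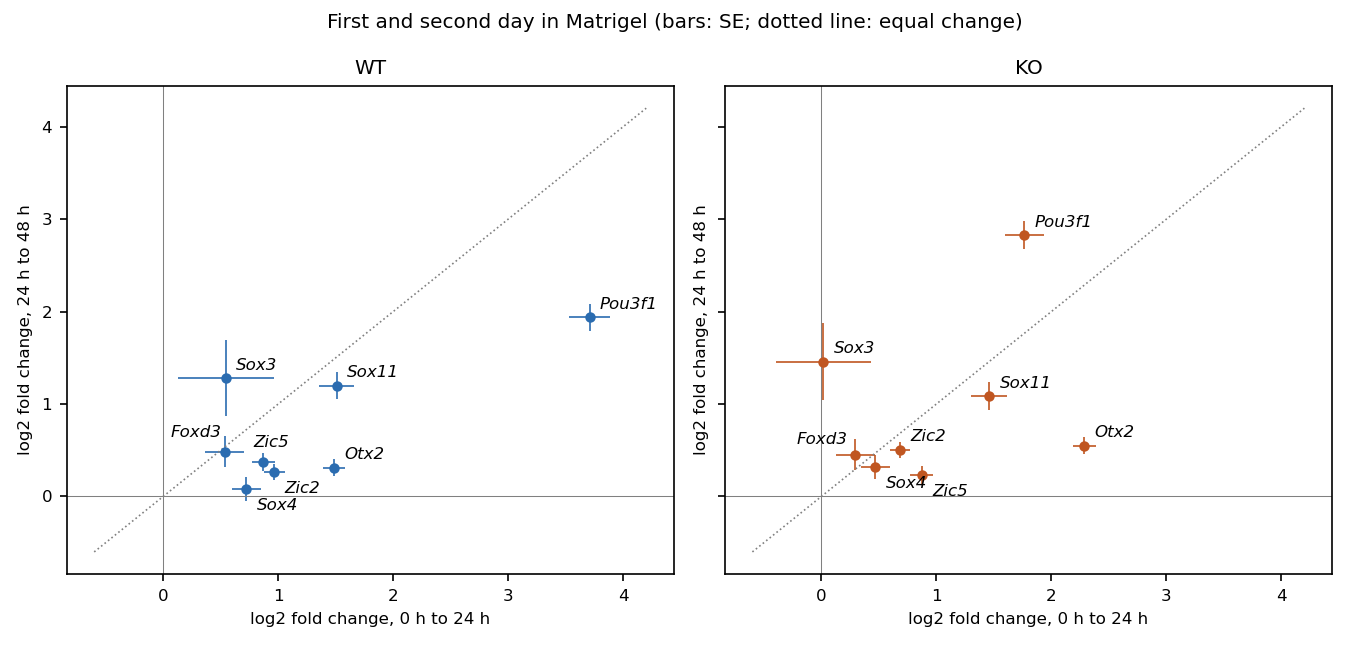
Log2 fold change of each gene from 0 h to 24 h (x axis) against that from 24 h to 48 h (y axis) in WT (left) and KO cells (right), from the edgeR fit of 2 libraries per group, with bars for the SE and a dotted line where both changes are equal. *Otx2* lies far below the line in both panels, and *Pou3f1* lies below it in WT (3.71 and 1.94) and above it in KO cells (1.76 and 2.83).

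*Otx2* encodes a homeodomain factor needed for anterior development. Its level was 43.0 and 47.2 TPM in the WT ESC libraries and 24.2 and 22.0 TPM in the KO ESC libraries. At 24 h it was 126 and 132 TPM in WT and 103 and 122 TPM in KO spheroids, and at 48 h 156 and 165 TPM in WT and 171 and 155 TPM in KO spheroids. Both KO libraries were therefore below both WT libraries at 0 h and, by a small margin, at 24 h, and the genotypes overlapped at 48 h. Among the 8 members *Otx2* had the highest mean TPM in every group except KO ESCs, where *Zic2* (44.4 ± 2.26 TPM, SD, n = 2) and *Zic5* (25.6 ± 0.823 TPM) stood above it (23.1 ± 1.56 TPM). The coding transcript of *Zic5* alone, Zic5-201, had 13.4 and 14.9 TPM in KO ESCs, below *Otx2*.

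At 0 h *Otx2* was lower in KO cells by a log2 fold change of -0.95 ± 0.10 (SE, edgeR adjusted p = 2.59e-05), the only member called among the 8, where 1.26% of all genes were called. At 24 h the difference was -0.15 with a 95% interval of -0.34 to 0.04, or -0.067 without KO 24 h replicate 1 and -0.24 without replicate 2, called in neither case, and at 48 h it was 0.09 with an interval of -0.10 to 0.28. The rise from 0 h to 48 h was larger in KO (2.84 ± 0.10) than in WT cells (1.80 ± 0.10), and this interaction of 1.04 ± 0.13 was called (adjusted p = 0.0024), where 0.0402% of all genes were. That call was lost with average transcript lengths as offsets (adjusted p = 0.124) and with either limma fit (adjusted p up to 0.308). From 0 h to 24 h the interaction of 0.80 ± 0.13 just missed the threshold (adjusted p = 0.0577), while DESeq2 gave 0.81 (adjusted p = 5.63e-05). It was not called in 5 of the 9 alternatives other than leaving out a library, among them length offsets, both limma fits and only the groups compared. Leaving out either KO 24 h library gave 0.88 and 0.72. With each of the 12 libraries left out in turn the value ran from 0.69 to 0.91, and 6 of these fits did not call it. Over all times together, *Otx2* was lower in KO cells by -0.34 ± 0.05 (adjusted p = 0.000672), again the only member called, where 5.03% of all genes were.

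In the same ESC libraries, 18644 and 19081 genes were detected in KO against 17641 and 17715 in WT at equal depth. Summed markers were also lower in KO than in WT ESCs for fibroblasts (7.84 to 15.1 against 15.8 to 25.5 TPM, with *Thy1* the largest part), for extraembryonic endoderm (6.90 to 7.99 against 10.0 to 11.2 TPM) and for trophoblast (14.6 to 16.8 against 22.2 to 23.8 TPM, with *Tfap2c* the largest part). No tested marker of these lists was called between the genotypes at 0 h. Not every marker followed its sum. As group means in KO and WT ESCs, *Gata4* was 3.17 and 3.15 TPM and *Sox7* 0.997 and 0.902 TPM. *Gata3* was 1.53 and 0.170 TPM, and *Pdgfrb* 1.19 and 0.922 TPM. *Pdgfra* (1.27 and 2.67 TPM) varied widely between the WT ESC libraries (SD 2.40). The summed pluripotent markers were higher in KO ESCs (3204 to 3374 against 3013 to 3062 TPM), and the neural and mesendoderm sums overlapped. *Col3a1* and *Dcn* had at most 0.0316 TPM as group means in ESCs. The part of these markers in the *Otx2* difference was not tested.

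The *Otx2* RNA was assigned mainly to a pair of transcripts with separate starts and the same coding length. Otx2-201 and Otx2-204 together held 69.2% to 91.6% of *Otx2* TPM over the 12 libraries, with medians of 41.0% and 39.2% each. Transcripts from the upstream group of starts held 8.43% to 23.2%. In KO ESCs Otx2-201 stood at 10.7 and 4.69 TPM and Otx2-204 at 10.2 and 12.2 TPM, against 18.8 and 19.5 TPM and 16.0 and 18.0 TPM in WT ESCs. Both transcripts were thus lower in each KO than in each WT ESC library. No 31-base word of any *Otx2* transcript, the length by which the quantifier matches reads by default, occurred in a transcript of another gene.

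*Pou3f1* encodes a POU domain factor of the formative epiblast that later acts in neural and Schwann cells. It stood at 1.23 and 0.859 TPM in WT ESCs and at 1.95 and 1.54 TPM in KO ESCs. At 24 h it reached 15.8 and 12.6 TPM in WT but 5.65 and 6.56 TPM in KO spheroids, and at 48 h 51.2 and 55.2 TPM in WT and 42.7 and 38.9 TPM in KO spheroids. The KO libraries lay above the WT libraries at 0 h and below them at 24 h and 48 h, with no overlap at any time.

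At 24 h *Pou3f1* was lower in KO spheroids by a log2 fold change of -1.24 ± 0.15 (edgeR adjusted p = 9.2e-05), the only member called, where 1.46% of all genes were called. Without KO 24 h replicate 1 the value was -1.17 and stayed called. The call was lost with limma on log2(TPM + 1) (-1.10, adjusted p = 0.088) and on log2(TPM + 0.1) (adjusted p = 0.127), and with only the groups compared (adjusted p = 0.0616). At 0 h the value was 0.70 with a 95% interval of 0.29 to 1.11 (adjusted p = 0.106), which DESeq2 called (adjusted p = 0.0476), as did edgeR without either KO library of 24 h (0.71 and 0.70). The other 10 fits with 1 library left out did not call it, nor did 7 of the 9 other alternatives. The value at 0 h ran from 0.46 without WT 0 h replicate 2 to 0.996 without WT 0 h replicate 1. At 48 h it was -0.35 with an interval of -0.64 to -0.07 (adjusted p = 0.454). At 48 h none of the 8 members was called by edgeR or DESeq2, where 0.671% of all genes were called by edgeR, and 2 members had an unadjusted p under 0.05.

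The first day rise of *Pou3f1* was 3.71 ± 0.18 in WT and 1.76 ± 0.17 in KO cells, and the second day rise 1.94 ± 0.14 and 2.83 ± 0.15. The first day interaction of -1.94 ± 0.24 was called (adjusted p = 0.0029), where 0.0115% of all genes were. It was not called with average transcript lengths as offsets (adjusted p = 0.141), with only the groups compared (adjusted p = 0.106) or with either limma fit (adjusted p up to 0.782). Over the 9 alternatives other than leaving out a library it ran from -1.96 to -1.52. The second day interaction was 0.89 ± 0.20 (adjusted p = 0.541), and 0.96 (adjusted p = 0.0054) without KO 24 h replicate 2. No member was called for this interaction by edgeR or DESeq2, where 0.023% of all genes were called by edgeR, and 1 member had an unadjusted p under 0.05. From 0 h to 48 h the interaction was -1.05 ± 0.24 (adjusted p = 0.18) and passed the threshold without either KO library of 24 h (-1.06 in both cases). The KO ESC libraries had 114 and 146 estimated counts of *Pou3f1* and the WT ESC libraries 68 and 100, so its values at 0 h rest on far fewer reads than at 48 h (2989 to 5219).

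**Figure D3:**
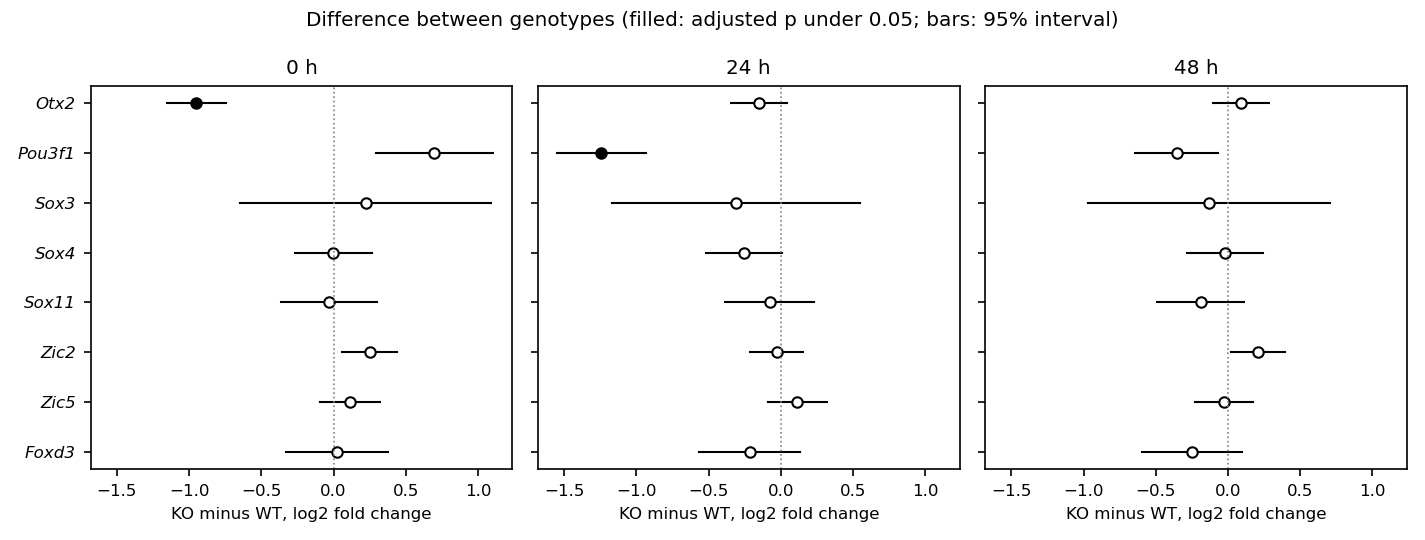
KO minus WT log2 fold change of each gene (x axis) at 0 h, 24 h and 48 h, from the edgeR fit of 2 libraries per group, with bars for the 95% interval and filled symbols where the adjusted p was under 0.05. The filled symbols are *Otx2* at 0 h (-0.95) and *Pou3f1* at 24 h (-1.24), and the interval of *Sox3* is the widest at each time.

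*Sox3*, a SoxB1 factor on chromosome X related to the core pluripotency factor SOX2, was the least precisely measured member. It had 1.67 to 3.26 TPM in the 4 ESC libraries and 1.95 to 3.24 TPM in the 4 libraries at 24 h. At 48 h it had 5.38 and 9.52 TPM in WT and 5.55 and 7.87 TPM in KO spheroids. The 48 h libraries were all above the earlier ones, the genotypes overlapped at every time, and the replicates at 48 h differed from each other widely. The second day rise was 1.46 ± 0.41 in KO cells (edgeR adjusted p = 0.028) and 1.28 ± 0.41 in WT cells (adjusted p = 0.0617), and without KO 24 h replicate 1 the KO value was 1.15 (adjusted p = 0.123) and the WT value 1.28 (adjusted p = 0.0134). The KO call was also lost without either KO 48 h library (1.67 and 1.19). Of the 9 alternatives other than leaving out a library, 5 did not call the KO rise either (1.11 to 1.46). The WT value was also called without KO 24 h replicate 2. With any 1 of the other 10 libraries left out it was not called, and it was 0.79 (adjusted p = 0.501) without WT 48 h replicate 2. The KO minus WT difference at 48 h was -0.13 with a 95% interval of -0.97 to 0.71. Differences of either sign within these bounds were compatible with the data, which held 65 to 461 estimated counts of *Sox3* per library.

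The SoxC members *Sox4* and *Sox11*, which act in progenitor cells of many tissues, rose with different timing. *Sox4* was 14.4 and 14.3 TPM in WT ESCs, 25.3 and 24.0 TPM at 24 h and 25.9 and 25.0 TPM at 48 h, so the levels at 24 h and 48 h overlapped. In KO cells it was 14.6 and 14.9 TPM at 0 h, 16.9 and 25.1 TPM at 24 h, and 23.2 and 26.1 TPM at 48 h. The low value at 24 h was that of replicate 1, the library that stood apart in genes detected. The first day rise was 0.72 ± 0.13 in WT (edgeR adjusted p = 0.000455) and 0.47 ± 0.13 in KO cells (adjusted p = 0.0128). With KO 24 h replicate 2 left out, so that replicate 1 stood alone, the KO rise was 0.20 (adjusted p = 0.211) and the KO minus WT difference at 24 h was -0.53 (adjusted p = 0.0028), where the fit of all libraries gave -0.26 (adjusted p = 0.418). Without replicate 1 the KO rise was 0.70 and the difference -0.022. Leaving out either KO 0 h library also ended the call of the KO rise (0.45 and 0.48). So did 4 of the 9 alternatives other than leaving out a library. These were length offsets, both limma fits and only the groups compared (0.46 to 0.48).

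*Sox11* was 1.40 and 1.22 TPM in WT and 1.31 and 1.33 TPM in KO ESCs. At 24 h it was 4.09 and 3.67 TPM in WT and 3.42 and 4.03 TPM in KO spheroids. At 48 h it was 8.90 and 8.47 TPM in WT and 7.72 and 7.22 TPM in KO spheroids. The genotypes overlapped at 0 h and 24 h, and at 48 h both KO libraries were just below both WT libraries. On both days the rise was called in both genotypes, by 1.51 ± 0.16 and 1.199 ± 0.15 in WT and by 1.46 ± 0.16 and 1.09 ± 0.15 in KO cells. The KO minus WT difference at 48 h was -0.19 with a 95% interval of -0.49 to 0.11.

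*Zic2*, which binds enhancers in ESCs and is needed for forebrain patterning, was the second most abundant member in 5 of 6 groups. It had 34.3 and 36.9 TPM in WT and 46.0 and 42.8 TPM in KO ESCs. At 24 h it had 79.8 and 70.8 TPM in WT and 67.5 and 80.1 TPM in KO spheroids, and at 48 h 87.5 and 87.2 TPM in WT and 101 and 104 TPM in KO spheroids. The KO libraries were above the WT libraries at 0 h and 48 h and overlapped with them at 24 h. The differences were 0.25 with a 95% interval of 0.06 to 0.44 at 0 h (edgeR adjusted p = 0.29) and 0.21 with an interval of 0.02 to 0.39 at 48 h (adjusted p = 0.551), so neither passed the test over all genes. The first day rise was 0.96 ± 0.09 in WT and 0.68 ± 0.09 in KO cells, and the second day rise was called in KO cells (0.50 ± 0.09, adjusted p = 0.000733) and stood at 0.27 ± 0.09 in WT cells (adjusted p = 0.0751), where it was called without either KO library of 24 h (0.26). The interactions of both days were -0.28 and 0.24 and were not called (adjusted p = 0.84 and 0.981).

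*Zic5*, the neighbour of *Zic2*, had 17.6 and 16.4 TPM in WT and 26.2 and 25.0 TPM in KO ESCs, 47.3 and 47.1 TPM in WT and 83.2 and 46.2 TPM in KO spheroids at 24 h, and 55.9 and 48.2 TPM in WT and 38.7 and 39.3 TPM in KO spheroids at 48 h. By TPM it peaked at 24 h in KO cells, and the highest value was that of KO 24 h replicate 1. The estimated counts of the same gene did not show this peak. By counts the first day rise was 0.87 ± 0.10 in both genotypes, and the second day change was 0.38 ± 0.10 in WT (edgeR adjusted p = 0.0187) and 0.23 ± 0.10 in KO cells (adjusted p = 0.147). The KO value was 0.12 and 0.15 without KO 48 h replicate 1 and KO 24 h replicate 2. The WT call was lost without any 1 of the 4 WT libraries of 24 h and 48 h (0.34 to 0.41). It was also lost with average transcript lengths as offsets, where the WT value was 0.16 (edgeR adjusted p = 0.809). With limma on log2(TPM + 1) and log2(TPM + 0.1) the WT value was 0.13 and 0.14, called in neither. With average transcript lengths as offsets the KO value of the second day turned to -0.64 (adjusted p = 0.098).

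The TPM of *Zic5* was divided between the coding transcript Zic5-201 (4767 bases) and the noncoding Zic5-202 (705 bases). Zic5-202 held 12.8% to 72.3% of *Zic5* TPM over the libraries and 60.1 of the 83.2 TPM in KO 24 h replicate 1. Of its 675 words of 31 bases, 320 (47.4%) also occurred in transcripts of other genes, against 513 of 4726 (10.9%) for Zic5-201. Zic5-201 alone had 13.4 and 13.5 TPM in WT and 13.4 and 14.9 TPM in KO ESCs. At 24 h it had 23.4 and 24.0 TPM in WT and 23.1 and 25.7 TPM in KO spheroids. At 48 h it had 31.9 and 30.2 TPM in WT and 33.8 and 28.9 TPM in KO spheroids. The coding transcript was thus higher at each later time in both genotypes, with overlapping genotypes at each time, and the peak at 24 h in KO cells lay in the short transcript. In the 6 members other than *Zic5* and *Otx2*, at most 2.96% of the words occurred in other genes, the highest share being that of *Foxd3*, which shared words with *Foxd1*, *Foxd2*, *Foxd4* and *Foxl1*.

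**Figure D4:**
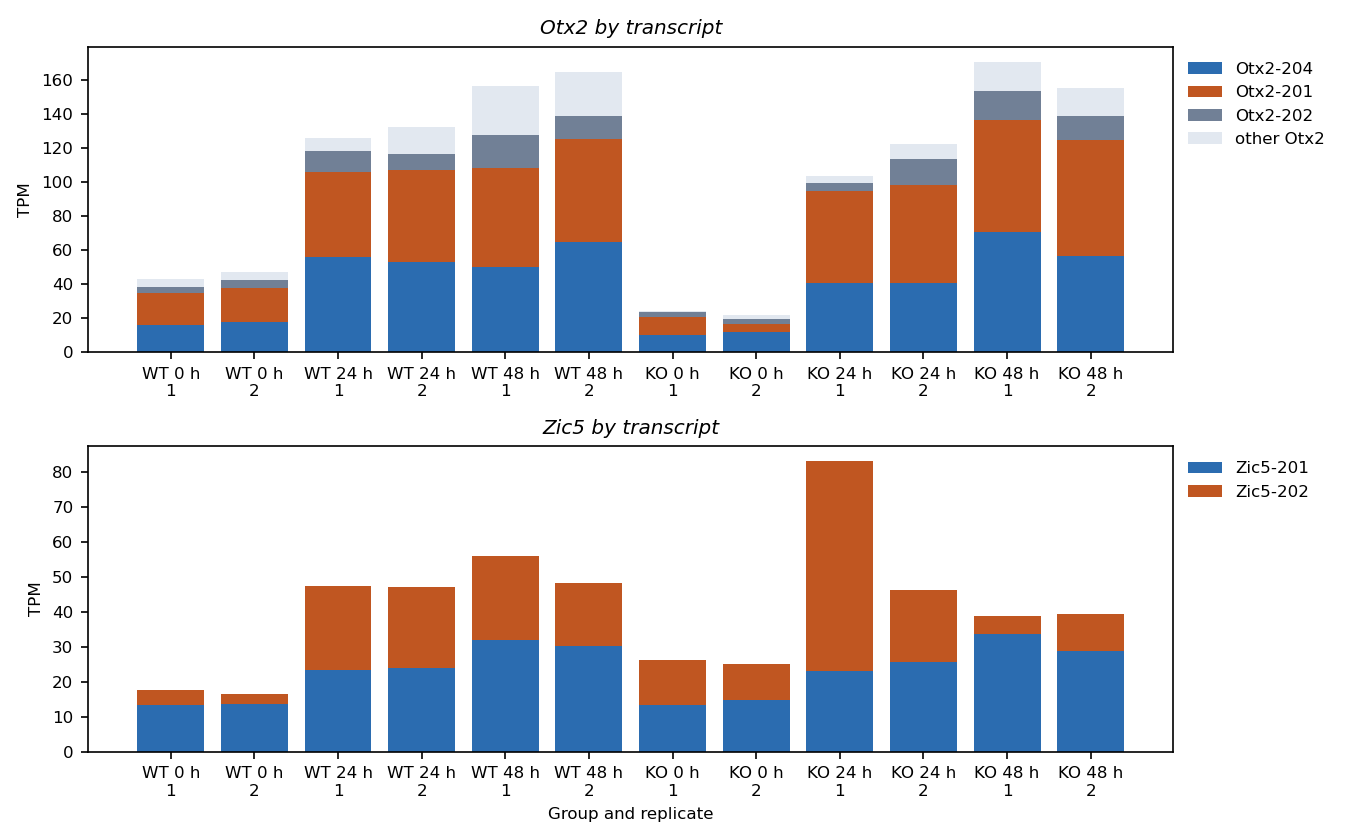
TPM of *Otx2* (top) and *Zic5* (bottom) in each of the 12 libraries (x axis, group and replicate), stacked by transcript. Otx2-201 and Otx2-204 make up most of each *Otx2* bar, and Zic5-202 accounts for 60.1 of the 83.2 TPM in KO 24 h replicate 1.

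*Foxd3*, which is required to maintain epiblast cells and later marks the neural crest, had 11.9 and 11.7 TPM in WT and 14.1 and 10.6 TPM in KO ESCs. At 24 h it had 20.04 and 15.5 TPM in WT and 15.6 and 15.5 TPM in KO spheroids. At 48 h it had 24.0 and 24.6 TPM in WT and 18.7 and 21.5 TPM in KO spheroids. The genotypes overlapped at 0 h and 24 h, and at 48 h the KO libraries were below the WT libraries, with a difference of -0.25 and a 95% interval of -0.59 to 0.10. The first day rise was called in WT cells (0.53 ± 0.17, edgeR adjusted p = 0.037) and not in KO cells (0.29 ± 0.17, adjusted p = 0.265, and 0.52 and 0.10 without KO 0 h replicate 1 and 2), and the interaction was -0.24 ± 0.24 (adjusted p = 0.953). Leaving out WT 24 h replicate 1, the higher of the pair, gave a WT rise of 0.35 and ended the call. The WT call was also lost without either WT 0 h library (0.56 and 0.52). It was lost as well with length offsets, both limma fits and only the groups compared (0.54 to 0.57). The second day change was 0.49 ± 0.17 in WT and 0.45 ± 0.17 in KO cells, and neither was called, although the WT value of 0.48 passed the threshold without either KO library of 24 h.

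The order of the members by TPM changed over time. In WT cells *Otx2*, *Zic2*, *Zic5* and *Sox4* led at 0 h, and *Pou3f1* was last with 1.05 ± 0.264 TPM (SD, n = 2), overlapping with *Sox11*. By 48 h *Pou3f1* ranked behind only *Otx2* and *Zic2* in both genotypes, with 53.2 ± 2.82 TPM in WT and 40.8 ± 2.66 TPM in KO cells, overlapping with *Zic5*. *Sox11* and *Sox3* were the lowest at 48 h and overlapped with each other in both genotypes. *Foxd3* overlapped with *Pou3f1* at 24 h in WT cells (17.8 ± 3.21 and 14.2 ± 2.28 TPM) but not in KO cells (15.5 ± 0.0622 and 6.10 ± 0.645 TPM).

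Relatives of the members in the same gene families were read beside them. Of 14 relatives, 12 were tested, and from 0 h to 48 h 1 was called higher and 2 lower in each genotype. The gene that rose was *Sox12*, the remaining SoxC factor (log2 fold change 0.48 ± 0.11 in WT and 0.40 ± 0.11 in KO cells). Those that fell were the SoxB1 genes *Sox1* (-2.37 ± 0.27 and -2.20 ± 0.27), a neural plate factor, and *Sox2* (-0.33 ± 0.08 and -0.43 ± 0.08). *Sox1* was also higher in KO cells over all times (0.61 ± 0.15, edgeR adjusted p = 0.0215), the only relative called between the genotypes. *Otx1*, *Crx*, *Pou3f2*, *Pou3f3*, *Pou3f4*, *Zic1*, *Foxd1* and *Foxd4* stayed below 1 TPM in all libraries, and *Zic4* and *Foxd2* did not exceed 1.48 and 1.86 TPM.

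Among 20 other genes of the formative and primed states, 13 were called higher and 3 lower from 0 h to 48 h in WT cells, and 12 higher and 3 lower in KO cells, with a median log2 fold change of 1.03 and 1.05. The de novo DNA methyltransferase *Dnmt3b* rose by 3.46 ± 0.07 and 3.72 ± 0.07 in WT and KO cells, and the growth factor *Fgf5* by 6.70 ± 0.47 and 6.58 ± 0.47. Between the genotypes, 0 were called higher and 4 lower in KO ESCs, namely *Grhl2* (-1.23 ± 0.11), *Lef1* (-2.03 ± 0.28), *Nodal* (-0.77 ± 0.14) and *Dnmt3a* (-0.31 ± 0.07). At 24 h 3 were lower in KO spheroids, *Lef1* (-0.92 ± 0.19), *Dnmt3a* (-0.36 ± 0.07) and *Dnmt3b* (-0.34 ± 0.07), and 0 higher. *Grhl2*, an epithelial factor, stood at -0.11 ± 0.10 at 24 h, and *Dnmt3b* at -0.26 ± 0.07 at 0 h (adjusted p = 0.0708). The 11 naive factors were called lower from 0 h to 48 h in both genotypes without exception, with medians of -1.92 in WT and -2.26 in KO cells, and *Klf4* and *Zfp42* were higher in KO cells at 0 h (0.47 ± 0.09 and 0.31 ± 0.07) and 24 h (0.42 ± 0.09 and 0.33 ± 0.07).

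The genes whose pattern over the 12 libraries was most like that of each member were named by Pearson's r of log2 CPM (estimated counts scaled by library size), among 11972 other genes with a mean of at least 1. All 12 points share the groups and the course of time, so r is given as a description. For *Otx2* they were *Grhl2* (r = 0.990), *Fgf15* (0.988) and *Set* (0.988). *Grhl2* had 6.93, 38.3 and 41.6 TPM at 0 h, 24 h and 48 h in WT and 2.97, 36.3 and 38.3 TPM in KO cells, with the low start in KO ESCs that *Otx2* showed. For *Pou3f1* they were *Gar1* (0.988), *Naf1* (0.987) and *Pcdh8* (0.987), and *Pcdh8* had 0.123, 1.57 and 4.53 TPM in WT and 0.372, 0.699 and 4.79 TPM in KO cells. For *Sox11* the first was *Mfap3l* (0.994), for *Zic5* *Fubp1* (0.988), for *Zic2* *Gnpat* (0.982), for *Sox4* *Adgrl1* (0.977), for *Foxd3* *Pla2g12a* (0.958) and for *Sox3* *Arrdc1* (0.945). By TPM *Adgrl1* did not follow *Sox4*, with 87.6, 79.2 and 85.4 TPM at 0 h, 24 h and 48 h in WT cells. Among the members themselves, *Pou3f1* and *Sox11* were the most alike (0.982) and *Otx2* and *Sox3* the least (0.667).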

How the data were processed

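RNA was sequenced from 12 libraries (stranded mRNA, paired-end), 2 for each genotype and time. Per the labels, reads were checked with FastQC, trimmed with Trimmomatic 0.33 and quantified with kallisto 0.43.1. The authors deposited, for each of 115270 transcripts, an estimated count, which is not scaled, and TPM, which is divided by effective length and scaled within each library. The strand setting is not given in the sources used here, and kallisto divides reads shared by near-identical transcripts. Transcripts were matched to GENCODE M21 (GRCm38), of which 98.5% matched, and summed over genes. Count sums were rounded and fitted in edgeR 4.0.16 (TMM, filterByExpr, robust quasi-likelihood, 1 mean per group over all 12 libraries, R 4.3.3), with Benjamini-Hochberg adjustment over 17424 genes and a threshold of 0.05. The 95% intervals use the t distribution of that fit. On simulated counts for 17424 genes, the WT comparison of 24 h with 0 h recovered 71 of 100 genes changed by 1 and 80 of 100 changed by 2 log2 units, with 13 false calls, and the KO minus WT comparison at 24 h recovered 60 and 89 of 100, with 15 false calls. The changed genes were drawn from those with a mean above 1 CPM, so recovery at lower levels was not measured. All simulated libraries of a gene shared 1 dispersion, so a library that stood apart was not imitated. Depth set a floor of 3 counts, 0.0779 to 0.103 CPM, which covers counting error only. Replicates differed by more than sampling noise (chi-square per degree of freedom 11.2 to 32.7).

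The members, gene lists, motifs and tests were chosen with earlier results of these data known. All 8 members are reported in every comparison, with their gene families, 20 other formative and primed genes, 11 naive factors, and for each member the genes of highest Pearson's r on log2 CPM (prior count 2). Transcripts are described where at least 2 reach 10% of a member's TPM in a group mean. Promoter windows came from RefSeq (GRCm38.p6), which held 5 of the 8 members; *Pou3f1*, *Sox3* and *Zic2* had no entry. Motifs were searched on both strands. Alternatives were DESeq2 1.42.0, its size factors in edgeR, no filter, transcript length offsets, limma 3.58.1 on log2(TPM + 1) and log2(TPM + 0.1), a replicate block, genes detected as a covariate, only the groups compared, and each library left out in turn. The most abundant transcript alone was read by its TPM, with no fit, and is not counted among these alternatives.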

Additional observations from a re-analysis of the deposited data

Results flagged for a closer look

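The change of *Pou3f1* from 0 h to 24 h differed between the genotypes by an interaction term of -1.94 ± 0.24 (SE, edgeR adjusted p = 0.0029), with a rise of 3.71 in WT and 1.76 in KO cells, and both KO libraries were below both WT libraries at 24 h. The change of *Otx2* from 0 h to 48 h differed by 1.04 ± 0.13 (adjusted p = 0.0024), with a rise of 1.80 in WT and 2.84 in KO cells, and both KO libraries were below both WT libraries at 0 h. Both members were singled out because this difference of changes was itself called over all genes. All KO libraries came from 1 clone, so *Cidea* loss and the clone cannot be told apart. With 2 libraries per group, no single library was tested against its own group.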

How the results depend on the processing

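Of 43 changes of members called, 29 were called under every alternative, and none of the 43 changed sign. The number of members called for the second day in WT cells (4 in the fit reported) was 2 with length offsets and with limma on log2(TPM + 1), 1 with limma on log2(TPM + 0.1) and 7 with only the groups compared, and for the second day in KO cells (5) it was 3 with limma on log2(TPM + 0.1). For KO minus WT at 0 h and over all times (1 each) it was 2 with DESeq2 and without the filter, and at 24 h (1) it was 0 with both limma fits and with only the groups compared. For the interaction from 0 h to 24 h (1) it was 2 with DESeq2, its size factors, no filter and the covariate, and 0 with length offsets, both limma fits and only the groups compared. For that from 24 h to 48 h (0) it was 1 with no filter, and for that from 0 h to 48 h (1) it was 2 with no filter and 0 with length offsets and both limma fits. With each library left out in turn these counts ran from 2 to 7 for the second day in WT, 1 to 2 for KO minus WT at 0 h, at 24 h and for the interaction from 0 h to 48 h, 1 to 3 for KO minus WT over all times and for the interaction from 0 h to 24 h, and 0 to 2 for that from 24 h to 48 h. Each of these highest counts came without KO 24 h replicate 1 or 2. The second day count in WT cells was 2 without any 1 of the WT libraries of 24 h and 48 h. The count over all times was also 2 without WT 0 h replicate 2 or WT 24 h replicate 2, and that of the interaction from 0 h to 24 h was 2 without WT 0 h replicate 1, KO 0 h replicate 1 or either KO 48 h library. A lone library was then assumed to vary like the other groups.

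Of the 61 values not called, 19 changed sign under some alternative. *Sox3* from 0 h to 24 h in KO cells (0.02) was -0.012 with a replicate block. *Zic5* from 24 h to 48 h in KO cells (0.23) was -0.64 with length offsets and -0.66 and -0.67 with limma. At 0 h KO minus WT of *Sox3* (0.22) was -0.064 with the covariate, that of *Sox4* (-0.0021) was 0.0099 with length offsets and 0.037 and 0.039 with limma, and that of *Sox11* (-0.03) was 0.0075 and 0.013 with limma. The interaction of *Zic5* from 0 h to 24 h (-0.00019) was 0.0098 with DESeq2 size factors, 0.0097 with DESeq2 and 0.0026 with no filter, and with the covariate that of *Sox3* from 24 h to 48 h (0.18) was -0.017 and that of *Sox4* from 0 h to 48 h (-0.017) was 0.086. With a library left out, *Sox3* ran from -0.37 to 0.55 for 0 h to 24 h in KO cells, -0.31 to 0.62 for KO minus WT at 0 h, -0.49 to 0.35 at 48 h and -0.25 to 0.087 over all times, and -0.18 to 0.66 and -0.75 to 0.17 for the interactions from 24 h and from 0 h to 48 h. *Sox4* ran from -0.0104 to 0.022 at 0 h, -0.10 to 0.051 at 48 h, and -0.00028 to 0.51 and -0.097 to 0.054 for these interactions. *Sox11* ran from -0.12 to 0.0795 at 0 h, -0.165 to 0.0072 at 24 h and -0.15 to 0.043 for the interaction from 0 h to 24 h. *Foxd3* ran from -0.19 to 0.22 at 0 h and -0.23 to 0.13 for the interaction from 24 h to 48 h, *Zic2* from -0.11 to 0.053 at 24 h, and *Zic5* from -0.14 to 0.070 at 48 h and -0.086 to 0.076 for the interaction from 0 h to 24 h. The causes of these shifts were not tested. Deviations of same-numbered replicates from their group means had correlations between -0.049 and 0.051. These were taken over all genes together, so pairing that moved only some genes could be missed. Under the replicate block the second day count in WT cells was 3, while those of the other 12 comparisons were as reported. Taking only the most abundant transcript lowered the TPM of *Otx2* and *Zic5* in every group, and of *Zic2* at 48 h, by more than the SD between replicates. Precision was limited most for *Sox3* and for *Pou3f1* in ESCs, which had the fewest counts.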
